A study of Mus musculus with 4 samples.

Results

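The Zfp zinc finger genes described here were 171 protein-coding genes whose symbol was Zfp followed by a number only and whose level was at least 5 transcripts per 1000000 (TPM) in each of 4 RNA libraries. They were chosen by name, biotype and their measured TPM, so their presence above 5 TPM is the rule and not a result. They came from 371 protein-coding genes with such a symbol (46.1%), and 8840 of 21523 other protein-coding genes (41.1%) met the same minimum, which makes 9011 genes in all. Of the remaining Zfp genes, 55 met the minimum in 1 to 3 libraries and 145 in none, of which 19 were listed at 0 in every library. The members just inside the minimum were Zfp3 and Zfp36, each with 5.06 TPM in its lowest library. The genes just outside were Zfp719 with 4.89 TPM and Zfp667 with 4.88 TPM in theirs.

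The study asked what loss of Tut1, an enzyme that puts a uridine tail on U6 snRNA, does to stem cells with and without p53. The libraries came from primary neural stem cells of the mouse embryonic neocortex, with 1 library per group. The control carried the genotype Tut1f/f and received empty lipid nanoparticles (LNP), and the library labelled Tut1 KO carried the same genotype and received LNP with Cre mRNA for 3 days. The Trp53 KO was p53f/f and the double KO Tut1f/f;p53f/f, each under the same Cre treatment, so Cre was absent from the control alone and no group had Cre without a floxed gene. Each group rests on a single library, so no spread between cultures and no p-value can be given. Where 4 values follow each other without names, they are those of the control, the library labelled Tut1 KO, the Trp53 KO and the double KO, in this order.

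Tut1 had 12.2, 29.8, 12.5 and 13.7 TPM, highest in the library labelled Tut1 KO. Cre removes only 1 exon of the floxed Tut1 gene, so a level over the whole gene need not show the deletion and does not check the label. The paper reports efficient deletion of that exon in Tut1f/f neural stem cells given Cre mRNA, by qPCR or long reads. Gene-level values cannot show this, and directions drawn from the Tut1 labels rest on the labels. Trp53 had 120, 100.4, 39.7 and 41.95 TPM, lowest in both libraries with its deletion. Xist had 0.01, 188, 204 and 0.01 TPM, and 4 Y-linked genes were listed at 0 in both libraries with Xist and at 5.54 to 62.0 TPM in the others. A contrast that crosses this split cannot be told apart from a contrast of sex. All 8 neural stem cell markers were present (summed 12662, 11322, 10750 and 12439 TPM, most of it Fabp7), and all 5 microglia, 4 endothelial and 4 fibroblast and mural markers were under 1 TPM in every library. Neuronal markers summed to 238, 164, 210.5 and 217 TPM, most of it Map2, and Neurod6 was listed at 0 in every library. Both sums had the control and double KO as their upper pair, but the single markers Nes, Vim, Pax6, Hes1, Dcx, Rbfox3 and Snap25 did not. Astrocyte markers summed to 82.2 to 93.5 TPM, most of it Aldh1l1, with Gfap under 1 TPM, and oligodendrocyte markers to 4.50 to 8.37 TPM.

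C2H2 zinc finger proteins read DNA, and in some cases RNA, with small folds held by a zinc ion, each of which touches a few bases, so that a row of fingers reads a longer site. Many mouse members also carry a KRAB box near the start of the protein, which recruits the co-repressor TRIM28 and through it the histone methyltransferase SETDB1 and HP1 proteins. Such KRAB proteins are known for silencing retroelements and for keeping imprints. Members without a KRAB box are more mixed and include activators, RNA-binding proteins and factors of brain development.

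Promoters are shown for the 5 members that differed by at least 0.5 on the log2(TPM + 1) scale in the same direction in both contrasts of a gene. Each sequence is 300 bases from RefSeq (GRCm38.p6), 250 before and 50 after the annotated start, with each CG pair in capitals. Zfp422, Zfp869, Zfp317 and Zfp57 were lower by at least that much in both Trp53 contrasts, and Zfp131 in both Tut1 contrasts. Zfp317 and Zfp131 have 2 annotated starts each and Zfp57 has 3, of which the first listed is shown.
Zfp422, chr6:116628652-116628951, minus strand: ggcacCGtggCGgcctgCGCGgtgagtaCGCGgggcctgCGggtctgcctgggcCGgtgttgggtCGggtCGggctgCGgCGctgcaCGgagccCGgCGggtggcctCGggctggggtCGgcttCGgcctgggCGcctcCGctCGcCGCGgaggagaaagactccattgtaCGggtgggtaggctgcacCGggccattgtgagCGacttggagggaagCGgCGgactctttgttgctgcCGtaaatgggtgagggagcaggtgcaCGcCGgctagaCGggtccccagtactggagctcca
Zfp869, chr8:69716853-69717152, minus strand: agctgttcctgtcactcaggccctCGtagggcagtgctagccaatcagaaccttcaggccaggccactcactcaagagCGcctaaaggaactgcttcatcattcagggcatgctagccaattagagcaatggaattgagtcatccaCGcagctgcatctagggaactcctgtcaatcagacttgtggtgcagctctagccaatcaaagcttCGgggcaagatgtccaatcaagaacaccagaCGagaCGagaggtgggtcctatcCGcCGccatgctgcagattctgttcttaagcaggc
Zfp317, chr9:19621841-19622140, plus strand: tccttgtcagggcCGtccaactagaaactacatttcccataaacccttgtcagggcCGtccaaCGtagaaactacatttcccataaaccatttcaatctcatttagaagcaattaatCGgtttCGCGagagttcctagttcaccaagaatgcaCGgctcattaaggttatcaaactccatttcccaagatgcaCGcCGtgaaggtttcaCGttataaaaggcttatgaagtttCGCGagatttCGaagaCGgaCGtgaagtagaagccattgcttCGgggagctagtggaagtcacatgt
Zfp57, chr17:37003416-37003715, plus strand: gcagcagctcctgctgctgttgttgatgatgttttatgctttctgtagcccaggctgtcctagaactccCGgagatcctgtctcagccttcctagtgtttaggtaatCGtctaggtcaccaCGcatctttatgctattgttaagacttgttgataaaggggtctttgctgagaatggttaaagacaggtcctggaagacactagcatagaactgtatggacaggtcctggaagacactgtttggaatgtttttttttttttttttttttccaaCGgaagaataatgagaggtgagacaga
Zfp131, chr13:119790683-119790982, minus strand: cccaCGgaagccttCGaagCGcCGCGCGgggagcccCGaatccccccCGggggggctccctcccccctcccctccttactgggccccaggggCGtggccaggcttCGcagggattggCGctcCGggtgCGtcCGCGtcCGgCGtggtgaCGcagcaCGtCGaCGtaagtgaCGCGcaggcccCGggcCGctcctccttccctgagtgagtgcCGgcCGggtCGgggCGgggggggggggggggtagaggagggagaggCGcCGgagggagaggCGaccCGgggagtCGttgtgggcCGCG
The Zfp422 promoter held 32 CG pairs and the Zfp131 promoter 36, and 91.4% and 94.4% of all 32851 RefSeq promoters held as many or fewer. Zfp869 held 8 pairs (54.2%) and Zfp317 held 16 (68.6%). The Zfp57 promoter held 4 pairs (38%), and its other starts held 6 and 9 (47.9% and 56.5%). The letters of the p53 consensus half-site, searched on both strands and free of CG pairs themselves, were found in none of these sequences, which says only that they are not in these windows. Among all promoters 8.36% held them, and among the 170 promoters matched to 135 members 11 did (6.47%). The median number of CG pairs was 17 over the promoters of members and 7 over all promoters, which include those of genes under the TPM minimum. Promoters of other genes at the minimum were not set beside them, and the shares of all promoters given above have the same limit.

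Members lay on 20 chromosomes, with 35 on chromosome 7 and 22 on chromosome 17. The translated longest coding sequence of GENCODE M21 held at least 1 C2H2 finger in 163 members, with a median of 9 over all members and a highest count of 34 in Zfp142. A KRAB match in the first 200 residues was found in 70 members, with a median of 11 fingers, and not in the remaining members, with a median of 7. This match is one of letters, and Zfp57 and Zfp445, which are described as KRAB proteins, fell in the group without it. Of the 209 Zfp genes with a KRAB match, 33.5% met the TPM minimum, against 63.1% of the 160 genes without. Exons of 18 members overlap those of another gene on the same strand and exons of 43 those of a gene on the opposite strand, and 22 members have a near copy. Another Zfp gene lay within 100000 bases of 53 of the 70 KRAB members and of 30 members without a match.

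Most members were transcripts of low level, and as these were bulk libraries, fewer cells with a transcript and less of it per cell cannot be told apart. Their median was 13.6, 13.3, 12.3 and 14.2 TPM, and that of the other genes was 28.7, 26.4, 27.7 and 28.5 TPM. KRAB members had medians of 9.55 to 11.8 TPM and none reached 50 TPM, which 14 members without a KRAB match did in the control. The highest member was Zfp207, known for binding microtubules and the mitotic checkpoint protein BUB3, with 130, 105.5, 104.8 and 135.5 TPM. Its levels were higher in the control and double KO than in the other pair. Zfp664 (66.0 to 88.4 TPM), Zfp219 (66.1 to 80.3 TPM), Zfp428 (55.9 to 83.8 TPM) and Zfp706 (61.6 to 70.1 TPM) followed. Zfp706 has near copies, which are stretches of at least 200 bases with 95% identity or more, in 8 other genes, each under 2 TPM in every library.

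Across the libraries a member's level spanned a median of 0.37 on the log2(TPM + 1) scale, and that of the other genes 0.37 as well. The span stayed under 0.5 in 122 members (71.3%) and in 71.7% of other genes, and it reached 1 in 13 members (7.6%) and in 4.94% of other genes. These shares were not matched by level, and the members were at lower levels than the other genes. Zfp64, a transcriptional activator, had the smallest span, at 20.5, 20.8, 20.2 and 20.8 TPM. Zfp410, an activator of the chromatin remodeller gene Chd4, was at 41.6, 39.5, 39.2 and 40.1 TPM. All differences below are on the log2(TPM + 1) scale, which understates the change of low genes, and the threshold for a call in either direction was 1.

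**Figure D1:**
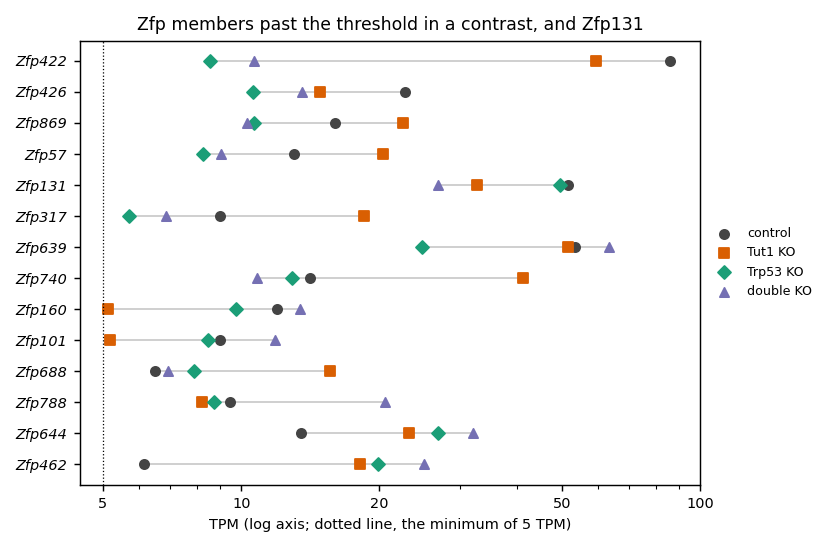
TPM (log axis) of the 13 members with a difference of at least 1 in any of the 5 contrasts and of Zfp131, with 1 symbol per library and a grey line over the range. Zfp422 sits at 8.53 and 10.7 TPM where Trp53 was deleted and at 86.0 and 59.3 TPM elsewhere, and Zfp462 is lowest in the control at 6.14 TPM.

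The largest difference of any member was seen in the Trp53 contrasts. Zfp422 (ENSMUSG00000059878, chromosome 6, 116624016 to 116628999, minus strand, GRCm38), a short protein with 5 fingers, had 86.0, 59.3, 8.53 and 10.7 TPM. Both libraries with the Trp53 deletion lay below both others. It differed by -3.19 between the Trp53 KO and the control and by -2.37 between the double KO and the Tut1 KO. Zfp422-ps, 97.2% identical to it over 708 bases, was listed at 0 in every library, so summing the pair leaves these values as they are.

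Zfp57, Zfp869 and Zfp317 were also lower by at least 0.5 in both Trp53 contrasts. Zfp57, which keeps DNA methylation at imprinted loci, had 13.1, 20.4, 8.26 and 9.04 TPM, with differences of -0.60 and -1.09. Zfp869 had 16.02, 22.6, 10.7 and 10.3 TPM, with differences of -0.55 and -1.06. Zfp317 had 8.97, 18.5, 5.69 and 6.84 TPM, with differences of -0.58 and -1.32. In all of these the Tut1 KO library was the highest, which enlarged the contrast with the double KO, whereas in Zfp422 the control was the highest. In all, 4 of 171 members (2.34%) were lower by at least 0.5 in both Trp53 contrasts, beside 1.02% of all 9011 genes, and none were higher in both, beside 0.555%. These contrasts share no library, but they cross the Xist split in opposite directions and the Trp53 KO, unlike its control, was not labelled Tut1f/f.

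In Trp53 KO minus control, 3 members were lower by at least 1 (0.932% of all genes were) and 1 was higher (0.721%). Beside Zfp422 the lower members were Zfp639, at 53.4 TPM and 24.8 TPM (-1.08, or -0.97 with a pseudocount of 5), and the KRAB member Zfp426, at 22.7 and 10.6 TPM (-1.03, or -0.83 with a pseudocount of 5). Zfp639 was not low in the double KO, where it had 63.2 TPM, and its value in the Trp53 KO was the only one under 50 TPM, and its exons overlap those of Gm37592 on the opposite strand. Zfp426 was below its control level in all Cre libraries, with 14.9 TPM in the Tut1 KO and 13.6 in the double KO. In double KO minus Tut1 KO, 6 members were lower (0.843% of all genes) and 3 were higher (1.02%). The lower ones beyond Zfp422, Zfp317, Zfp57 and Zfp869 were Zfp740 (-1.83) and Zfp688 (-1.07), and the higher ones were Zfp160 (1.23), Zfp788 (1.23) and Zfp101 (1.05). After a fit on GC content and transcript length was removed, Zfp688 was at -0.87 and the higher ones at 0.79, 0.83 and 0.69. With a pseudocount of 5 in place of 1, Zfp422 and Zfp740 were the 2 of these 9 members still past 1 (1.17%, beside 1.03% of other genes), and Zfp57 and Zfp869 were at -0.85, Zfp317 at -0.99, Zfp688 at -0.79, Zfp160 at 0.86, Zfp788 at 0.95 and Zfp101 at 0.72.

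Most of the latter values turned on the Tut1 KO library. Zfp740 had 14.1, 41.2, 12.9 and 10.8 TPM, and Zfp688 had 6.50, 15.6, 7.88 and 6.93 TPM. Both stood out in the Tut1 KO library alone, and exons of Zfp740 overlap those of Csad on the opposite strand. Zfp160 had 11.95, 5.13, 9.74 and 13.4 TPM, and Zfp101 had 8.97, 5.18, 8.47 and 11.8 TPM, so that both KRAB members were lowest in the Tut1 KO library. Zfp788, a KRAB member with 23 fingers, stood apart in the double KO instead, at 20.6 TPM against 8.20 to 9.47 TPM in the others.

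The Tut1 contrasts had few members in common. In Tut1 KO minus control, 3 members were higher by at least 1 (0.522% of all genes were), namely Zfp740 (1.48), Zfp462 (1.43) and Zfp688 (1.15, or 0.95 after the same fit and 0.84 with a pseudocount of 5), and 1 was lower (1.32% of all genes), Zfp160 (-1.08, or -0.63 after the same fit and -0.74 with a pseudocount of 5). In double KO minus Trp53 KO, 2 members were higher (0.699% of all genes), Zfp639 (1.32) and Zfp788 (1.15, or 0.90 with a pseudocount of 5), and none was lower (0.71%). None of these members was past 1 in both contrasts. One member alone, Zfp131, was lower by at least 0.5 in both (1 of 171 or 0.585%, beside 0.81% of all genes), and none was higher in both (0.533%). Zfp131 (ENSMUSG00000094870, chromosome 13, 119765187 to 119790889, minus strand), a BTB-domain zinc finger protein, had 51.6, 32.6, 49.6 and 26.8 TPM. Both libraries with a Tut1 label were below both without, by -0.65 and -0.87.

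**Figure D2:**
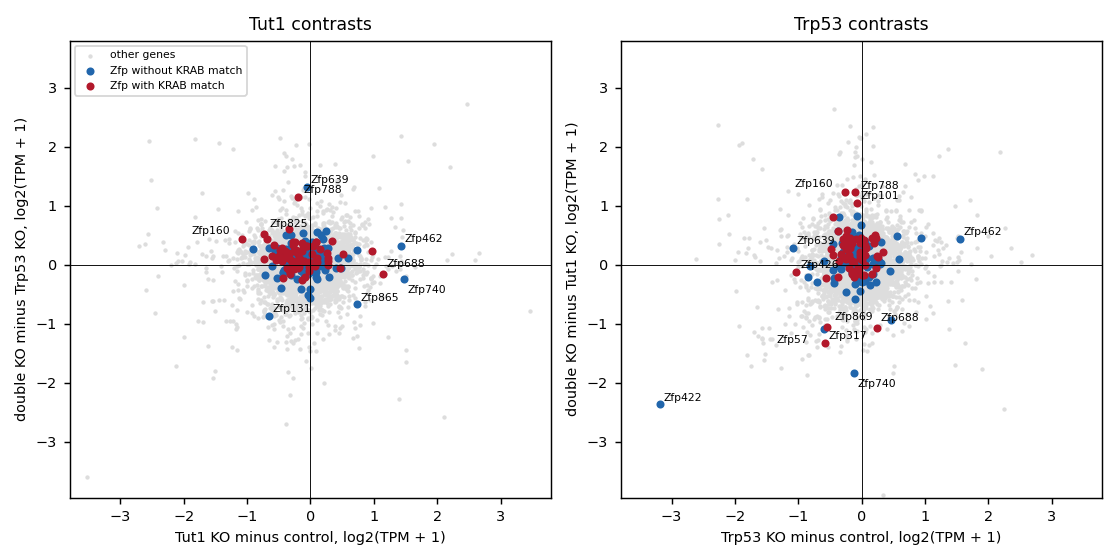
Differences in log2(TPM + 1) of each member (red, with a KRAB match; blue, without) and of the other 8840 genes (grey) in the 2 Tut1 contrasts (left) and the 2 Trp53 contrasts (right). Most members lie near 0 on both axes, Zfp422 stands alone at -3.19 and -2.37, and Zfp131 lies in the lower left of the Tut1 panel at -0.65 and -0.87.

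A further pattern set the control against all 3 Cre libraries. Zfp462 (ENSMUSG00000060206, chromosome 4, 54945048 to 55083563, plus strand), a protein of 33 fingers needed for brain development, had 6.14, 18.2, 19.9 and 25.02 TPM. The control was below each Cre library by 1.43, 1.55 and 1.87. It was the only member at least 1 lower in the control than in each of them (0.585%, beside 0.189% of all genes). Zfp644, a partner of the histone methyltransferases G9a and GLP, had 13.5, 23.2, 26.8 and 32.1 TPM and was higher by 0.74, 0.94 and 1.19, and it shares exons on its strand with Gm28039. The same order of the 4 libraries was seen in both genes, which were the 2 members (1.17%, beside 0.699% of all genes) at least 0.5 lower in the control than in each Cre library. The opposite was seen in 3 members (1.75%, beside 0.588%), which were Zfp422, Zfp426 and Zfp637. Zfp637, named after its values were seen, had 65.7, 44.3, 36.9 and 43.5 TPM. In double KO minus control, the higher members were Zfp462, Zfp644 and Zfp788 (3, beside 0.577% of all genes), of which Zfp788 was at 1.04 and fell to 0.82 with a pseudocount of 5, and the lower member was Zfp422 (1, at -2.90, beside 0.943%). The control differs from each of these libraries in the Cre treatment too, and from the Trp53 KO and the double KO in the floxed genes carried, so these cannot be told apart.

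As a group the members moved with the other genes. Their median difference was -0.13 where Tut1 KO was set against control, with -0.10 for the other genes, and 0.11 where double KO was set against Trp53 KO, with 0.05 for them. It was -0.10 beside -0.06 in Trp53 KO minus control, 0.11 beside 0.09 in double KO minus Tut1 KO, and 0.01 beside 0.00 in double KO minus control. The median of the members less that of the other genes thus lay between -0.04 and 0.05 in all 5 contrasts. In Trp53 KO minus control, 120 of 171 members (70.2%) were below 0, beside 61.5% of the other genes. In double KO minus Trp53 KO, 117 members (68.4%) were above 0, beside 59.9%. Within 5 bands of mean level, each with 34 or 35 members, the same difference of medians ran from -0.08 to 0.14, the latter in the middle band of double KO minus Trp53 KO.

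KRAB members had medians farther from 0 than members without a match. Other genes of like transcript GC content had medians as far from 0 in some contrasts and GC bands, but not in all. Other genes in the lowest of 4 bands of GC content had -0.37 where Tut1 KO was set against control and 0.38 where double KO was set against the Tut1 KO, beside -0.34 and 0.37 for the KRAB members in that band. After a fit on GC content and transcript length was removed, the KRAB medians over all bands turned to 0.09 and -0.04 in these contrasts. Before that fit, over both Tut1 contrasts, with Trp53 intact and then deleted, their medians were -0.19 and 0.14, and those of the members without a match -0.07 and 0.08. Over both Trp53 contrasts, against the control and then against the library labelled Tut1 KO, they were -0.15 and 0.19, and those of the members without a match -0.08 and 0.04. In the former Tut1 contrast 74.3% of the KRAB members were below 0, beside 60.4% of members without a match and 62.3% of other genes. In the latter Tut1 contrast 75.7% were above 0, beside 63.4% and 59.9%. The Tut1 KO library was the lowest of the 4 for 39 KRAB members (55.7%), for 33.7% of those without a match and for 42.4% of the other genes. In double KO minus control the medians were 0.04 and -0.02. By GC band, other genes were not always as far from 0 as KRAB members. For the Trp53 KO against its control, the lowest band had -0.18 for KRAB members and -0.13 for other genes. For the double KO against the Trp53 KO it had 0.18 and 0.14. In the third band these pairs were -0.16 and -0.05, and 0.11 and 0.05. In the second band other genes lay farther out, with -0.05 beside -0.09 and 0.08 beside 0.09.

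**Figure D3:**
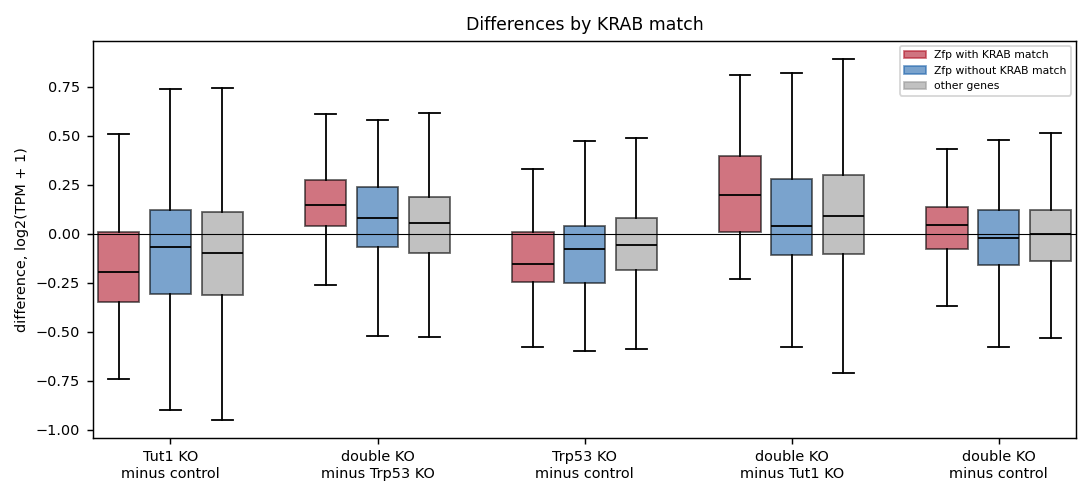
Differences in log2(TPM + 1) per contrast for 70 members with a KRAB match (red), those without (blue) and 8840 other genes (grey). Boxes span the interquartile range with a line at the median, whiskers reach the farthest gene within 1.5 box lengths and values beyond are not drawn, and the KRAB medians of -0.19 (Tut1 KO minus control) and 0.19 (double KO minus Tut1 KO) lie farther from 0 than those of the other groups, but are 0.09 and -0.04 after the fit on GC content and transcript length.

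These directions share a form, in which the control and double KO are the upper pair. That pair held the 2 highest levels in 61 members (35.7%), in 32 KRAB members (45.7%), in 29 members without a match (28.7%) and in 29.7% of other genes, with 29.8% over all genes. It is also the pair without Xist. Only 8 members (4.68%) had the Tut1 KO and Trp53 KO as their upper pair, beside 10.4% of other genes. The summed neural stem cell and neuronal markers, most of them Fabp7 and Map2, had the same upper pair, though several single markers did not. The neuronal sum was lowest in the Tut1 KO library. The part of sex or of these markers in the result was not tested.

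Transcript composition moved with the same contrasts. The median GC content of the longest transcript was 42.7% for KRAB members, 52.0% for members without a match and 50.6% for other genes. Over the 171 members the difference in Tut1 KO minus control had a Spearman's rho of 0.55 with GC content, and over 8819 other genes it was 0.45, across genes that share the same pair of libraries. In double KO minus Tut1 KO rho was -0.53 and -0.50, and for the double KO against the Trp53 KO -0.25 and -0.22. For the Trp53 KO against the control rho was 0.28 and 0.18, and for the double KO against the control 0.01 and -0.05. The members were divided into 4 bands of GC content. The lowest band (up to 42.1%) had a median of -0.34 where Tut1 KO was set against control, beside -0.37 for other genes in the same range, and the highest band (above 54.4%) had 0.10, beside 0.07. In the second band the groups lay farther apart, with -0.09 for KRAB members, -0.18 for those without a match and -0.24 for other genes. After the same fit, the KRAB medians became 0.09 and 0.05 in the Tut1 contrasts and 0.00 and -0.04 in the Trp53 contrasts, and those of members without a match 0.04 and 0.05, and -0.03 and -0.01.

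**Figure D4:**
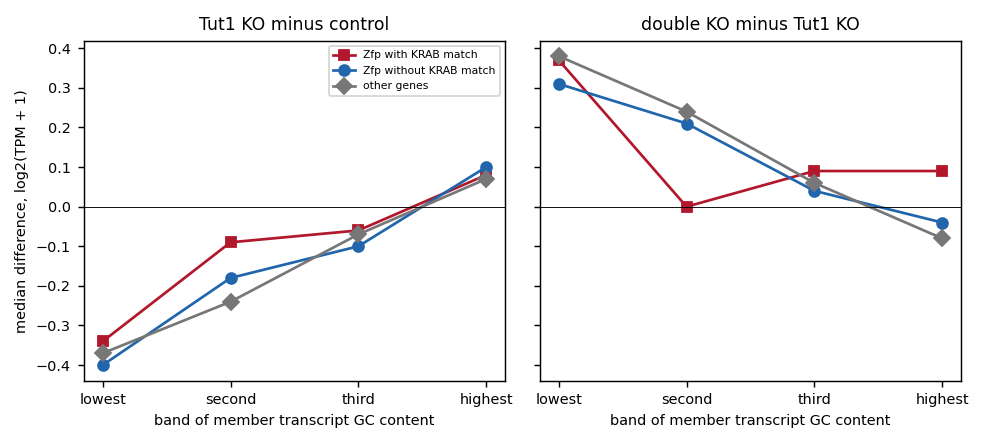
Median difference in log2(TPM + 1) by 4 bands of the members' transcript GC content, for members with and without a KRAB match and for other genes in the same GC range, in Tut1 KO minus control (left) and double KO minus Tut1 KO (right). In the lowest band all groups lie between -0.40 and -0.34 on the left and between 0.31 and 0.38 on the right. In the second band the groups lie apart, with the 21 KRAB members at -0.09 and 0.00. Members without a match are there at -0.18 and 0.21 and other genes at -0.24 and 0.24. The highest band holds only 5 KRAB members.

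The members were also set out by chromosome, neighbours and number of fingers. The 22 members on chromosome 17, with a median GC content of 40.2%, had a median of -0.27 where Tut1 KO was set against control, and the 35 on chromosome 7, with 52.7%, had 0.03. Members with another Zfp gene within 100000 bases had medians of -0.14 there and 0.15 in double KO minus Tut1 KO, and those without one had -0.12 and 0.09. The 53 KRAB members with another Zfp gene within 100000 bases had medians of -0.23 and 0.28 in these contrasts, and the 17 without one had -0.14 and 0.11. By number of fingers, the medians were -0.13 and 0.09 under 5, -0.06 and 0.04 for 5 to 9, -0.19 and 0.20 for 10 to 14, and -0.14 and 0.14 for 15 or more, with no steady order.

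Of 37 names in 5 role lists, 26 were members. The RNA list, with 8 members that act in RNA binding, decay, splicing or translation, held none past 1 in any contrast. Between 0.522% and 1.32% of all genes were past 1 per contrast and direction, so that a count of 0 in lists of this size is near the background here and in the lists below. All 8 were above 0 in double KO minus Trp53 KO, with a median of 0.18, beside 59.9% of other genes. In Tut1 KO minus control 6 were below 0, with a median of -0.23, beside 62.3% of other genes. Zfp638, a nucleic acid-binding protein linked to splicing, had the widest range, with 41.3, 31.4, 39.3 and 56.3 TPM. Zfp326, a subunit of the DBIRD complex that couples transcription and splicing, had 20.2, 18.5, 13.0 and 19.3 TPM and was low in the Trp53 KO alone. Zfp106 (26.7 to 37.0 TPM), Zfp830 (17.3 to 21.7 TPM), Zfp622 (20.03 to 24.1 TPM), the ribosome quality control ligase Zfp598 (29.6 to 32.4 TPM) and the mRNA decay factor Zfp36 (5.06 to 6.99 TPM) varied less.

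Of the DNA damage and p53 list, 3 of 5 names were members, and none was past 1, which is near the background share. Zfp365, which acts at stalled replication forks, had 59.5, 45.4, 32.8 and 39.4 TPM. It was lower in both Trp53-deleted libraries than in both others, by -0.84 and -0.20. Zfp91, a ubiquitin ligase, had 52.2, 35.9, 46.8 and 52.99 TPM, and Zfp668 had 11.1, 11.3, 7.79 and 10.5 TPM. Zfp91 shares exons with Cntf on the same strand, and how such reads were divided is not given in the sources used here.

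The neural list held 6 members of 10 names, of which Zfp462 was the only one past 1. Over the libraries, 7.6% of all members and 4.94% of other genes spanned at least 1. A count of 1 in a list of this size is not read as a trait of the list. Zfp24 had 48.8, 38.8, 40.1 and 48.7 TPM, with the control and double KO as its upper pair. Zfp521, a factor of neural commitment with 27 fingers, was at 7.84 to 9.75 TPM, Zfp335, needed for progenitor growth, at 11.96 to 13.5 TPM, Zfp703 at 9.90 to 12.6 TPM and Zfp704 at 13.9 to 19.0 TPM. Among the imprinting and retroelement list, 4 of 7 names were members and Zfp57 alone was past 1, beside the same shares and with the same limit. It was so only in double KO minus Tut1 KO (-1.09, or -0.85 with a pseudocount of 5). Zfp445, which acts with Zfp57 at imprints, had 34.8, 25.2, 28.2 and 29.5 TPM. Zfp809, which silences endogenous retroviruses, was at 5.63 to 6.43 TPM, and Zfp932 had 19.7, 13.9, 16.5 and 19.8 TPM, with a 97.4% identical stretch in Gm15446.

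The activators held 5 members of 6 names and none past 1, also near the background share. Zfp143, which drives snRNA and many other promoters, had 22.9, 14.1, 17.3 and 21.4 TPM, with a difference of -0.66 in Tut1 KO minus control. Zfp281, a pluripotency factor, was at 11.6 to 15.7 TPM and Zfp384 at 31.8 to 38.4 TPM.

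Of 18 genes that act with KRAB proteins, 17 met the minimum. None was past 1 in any contrast, beside 0.522% to 1.32% of all genes per contrast and direction. Trim28 itself had 253, 258, 259 and 276 TPM. In Tut1 KO minus control 16 of the 17 were below 0, beside 62.3% of genes other than Zfp, with a median of -0.38 beside -0.10 over all genes, and Setdb1 went from 35.5 to 27.1 TPM. In the other Tut1 contrast, with Trp53 deleted, 9 were above 0 and 8 below, with a median of 0.00. Where double KO was set against the Tut1 KO, 14 were above 0, beside 61.7% of other genes, with a median of 0.23. Against the control, 14 were below 0 in the Trp53 KO (median -0.08, with 61.5% of other genes below) and 14 in the double KO (median -0.09, with 50.8% below), so that in each Cre library most of these genes lay below the control. Cbx3, which encodes an HP1 protein, was lowest in the double KO, with 401, 305, 376 and 210 TPM. Medians in Tut1 KO minus control were -0.12 over 20 Zbtb genes, -0.20 over 5 Zscan genes, -0.04 over 5 Zkscan genes and -0.26 over 8 Klf genes.

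Zfp genes that met the minimum in some libraries only had larger differences, as the minimum itself selects for them, and they are described without comparison. The control and double KO held 37 and 38 of these 55 genes at 5 TPM or more, and the Tut1 KO and Trp53 KO 20 and 25. The same count was not made for other protein-coding genes, so it is not read as a trait of Zfp genes. Among other genes at the minimum throughout, the former pair was also the most frequent upper pair (29.7%). Zfp292, a neurodevelopmental factor, had 10.4, 0.02, 8.71 and 9.12 TPM. Zfp120 (7.02, 0.01, 6.54 and 9.27 TPM) and Zfp979 (6.63, 0.02, 6.77 and 7.47 TPM) were likewise near 0 in the Tut1 KO library alone, and Zfp715 (4.92, 4.39, 5.51 and 0.04 TPM) in the double KO alone. None of these 4 shares exons on its strand or has a near copy by the settings used.

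A few more of these genes are given as examples. Zfp260 had 36.0, 14.9, 6.34 and 4.69 TPM and was lower in both Trp53-deleted libraries than in both others. Zfp60 had 2.99, 13.0, 2.07 and 14.3 TPM, high in both libraries with a Tut1 label. Zfp46 had 1.78, 13.6, 15.3 and 1.26 TPM, high in both libraries with Xist. Zfp62 had 4.31, 14.8, 15.8 and 23.1 TPM, the same order as Zfp462 and Zfp644. Zfp82 had 6.26, 1.46, 5.65 and 6.47 TPM, and summed with Gm26920, with which it shares exons on the same strand, it had 6.26, 6.27, 5.65 and 6.86 TPM.

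**Figure D5:**
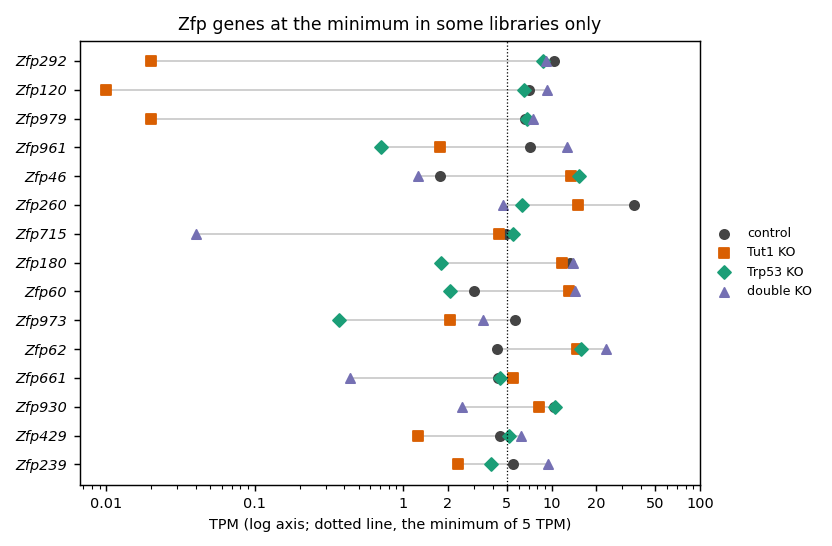
TPM (log axis) of the 15 Zfp genes with the largest differences among the 55 that met the minimum of 5 TPM (dotted line) in 1 to 3 libraries, with 1 symbol per library. Zfp292, Zfp120 and Zfp979 are at 0.01 to 0.02 TPM in the Tut1 KO library alone, and Zfp46 is high in the Tut1 KO and Trp53 KO at 13.6 and 15.3 TPM.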

How the data were processed

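The authors deposited gene-level TPM values, 1 column per library; the submitters' processing notes name Trimmomatic, HISAT2, StringTie and mm10, with no versions. The labels describe a short-read kit and the series text long reads, so the platform was not settled. TPM keeps no depth, so the depth of each library is unknown and no counting interval was computed. How strand and shared reads were treated is not given in the sources used here.

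Differences were taken as log2(TPM + 1) between libraries, for genes of at least 5 TPM in all 4. No test was run with 1 library per group. Members and lists were chosen with earlier results of these data known. Named members were the 4 largest rises and falls past 1 per contrast, up to 5 in each direction past 0.5 in both Tut1 or both Trp53 contrasts, the 5 highest, those at the minimum, and members of the role lists. Zfp genes under the minimum were named after their values were seen.

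Positions, transcripts and translated coding sequences came from GENCODE M21 (GRCm38), matched for all 171 members. A translation replaced the RefSeq protein planned for the KRAB and finger split. Near copies were found with blastn 2.17.0 (95% identity over 200 bases). The code was tested on simulated libraries. Python 3.11.15, numpy 2.4.6, pandas 2.3.3 and matplotlib 3.10.9 were used. Alternatives covered the pseudocount, the TPM minimum, scaling, composition, shared exons and the threshold.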

Additional observations from a re-analysis of the deposited data

Results flagged for a closer look

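Zfp865 and Zfp825 moved by at least 0.5 in opposite directions in the Tut1 contrasts, and the difference was not tested since each contrast has 1 library per side. Zfp865 had 8.47, 14.7, 12.1 and 7.22 TPM, in the order of libraries used above, with 0.73 where Trp53 was intact and -0.67 where it was deleted, a difference of 1.40 on the log2(TPM + 1) scale. It shares exons on the same strand with Ccdc106, Gm44973 and 4632433K11Rik, and summed with them it had 13.1, 22.1, 18.1 and 13.9 TPM, with 0.71 and -0.36. Zfp825 had 16.2, 9.30, 11.6 and 17.03 TPM, with -0.74 and 0.52, a difference of -1.26, and it has near copies in Gm15443, Gm47467 and Gm47469, with which it summed to 18.5, 12.2, 14.98 and 20.95 TPM, with -0.56 and 0.46. So summed, neither gene differed by 0.5 in both contrasts. The libraries with Xist were the higher pair for Zfp865 and the lower pair for Zfp825.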

How the results depend on the processing

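With 1 library per group no replicate could be left out. No paired analysis was possible because the groups share fewer than 2 replicate numbers. For want of a replicate spread, a median was taken as moved when it changed by more than 0.05. Of 65 recomputed medians of members less other genes, 61 stayed within 0.05, and 7 had the other sign. In Tut1 KO minus control the value was -0.14 with no TPM minimum and 0.07 after the GC and length fit. With no minimum it was -0.10 and 0.11 in the Trp53 contrasts, against the control and against the Tut1 KO. The range over alternatives was 0.04 to 0.08 in double KO minus Trp53 KO and 0.00 to 0.03 in double KO minus control.

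Counts of called members depended on the minimum and the threshold. In the order of both Tut1 contrasts (Trp53 intact, then deleted), both Trp53 contrasts (against the control, then against the Tut1 KO) and double KO minus control, they were 4, 2, 4, 9 and 4. They became 11, 10, 9, 20 and 9 with a minimum of 1 TPM in each library, 15, 14, 11, 25 and 11 with 5 TPM in at least 1, 18, 15, 13, 27 and 12 with none, and 1, 1, 2, 2 and 1 with 10 TPM in each. At a threshold of 0.5 they were 24, 13, 15, 21 and 13. A pseudocount of 5 gave 2, 1, 2 and 2 in the first 4 contrasts (0.585% to 1.17%, beside 0.939% to 1.29% of other genes). The GC and length fit gave 5 in double KO minus Tut1 KO (2.92%, beside 1.54% of other genes). Called shares of members and of other genes were 1.17% to 5.26% beside 1.41% to 1.83% as reported, 3.14% to 6.97% beside 2.02% to 2.68% with 1 TPM in each, 4.87% to 11.1% beside 2.68% to 3.41% with 5 TPM in at least 1, 3.23% to 7.28% beside 1.53% to 1.96% with none, 1.02% to 2.04% beside 1.12% to 1.33% with 10 TPM in each, and 7.6% to 14% beside 6.81% to 13.7% at 0.5. With a minimum of 1 TPM, 5 TPM in at least 1 library or none, the members' share was the higher in every contrast; these minima also admit genes that are low in some libraries. The restriction to autosomal genes was chosen after seeing the data. Of 138 recomputed differences of called members, 112 stayed past 1 and none changed sign. The other 26 dropped below 1, among them Zfp160 in Tut1 KO minus control (-0.63 after the GC and length fit) and Zfp426 in Trp53 KO minus control (-0.83 with a pseudocount of 5).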
